A study of Mus musculus with 6 samples.

Results

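Cytochrome P450 genes were followed in whole mouse lung as a family, from every probe set of the array whose only gene symbol in the platform annotation began with Cyp followed directly by a digit. This rule gave 98 probe sets for 73 genes, of 45037 probe sets and 18193 genes with their own symbol. Another 4 probe sets listed several Cyp symbols and were not members. Levels are quantile normalized intensities on the log2 scale, with values under the 20th percentile of all values raised to it (log2 3.95, called the floor here), and a gene is represented by its brightest probe set. A P450 is a heme enzyme that uses molecular oxygen to oxidize a substrate, and most P450s of the endoplasmic reticulum receive their electrons from the reductase Por. The family number reflects sequence likeness. Families 1 to 3 are best known for drugs and other foreign compounds, family 4 for fatty acids, and the remaining families for cholesterol, bile acids, steroids and vitamins. In mouse lung, the non-ciliated secretory (club) cells of the airways are the best known P450-rich cells.

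Each of the 6 arrays measured a pool of 3 lungs, 18 mice in all, and each of the 3 groups had 1 female and 1 male pool. The transgenic groups were SM22-dnBMPR2 mice, in which the SM22 promoter of smooth muscle drives an inducible dominant-negative form of the bone morphogenetic protein receptor BMPR2, after 8 weeks or 1 week of activation. Of the control pools, the male one was labelled SM22-rtTA only, which means the transactivator without the receptor transgene, and the female one by its strain, FVB/N, with no genotype. Right ventricular pressure was elevated in the transgenic mice and the controls carried the transactivator alone, per the series description. Neither ages nor an activation time for the controls were given in the labels, and freezing and RNA extraction were described only for the transgenic pools. Duration, age, inducer and handling therefore cannot be told apart from the transgene, and the same control pools served both durations. Where 2 values are given for a group, the first is the female pool's.

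Median intensities as deposited were 50.49 and 52.92 at 8 weeks, 60.22 and 57.1 at 1 week, and 63.41 and 61.43 in controls. The Y-linked markers Eif2s3y, Kdm5d and Uty were at the floor in every female pool. Bmpr2 itself, measured by a probe set that need not separate the native receptor from the transgene, had log2 intensities of 11.79 and 11.84 at 8 weeks, 11.85 and 12.14 at 1 week, and 11.99 and 12.15 in controls, and it did not pass in any comparison. Cardiac muscle markers summed to linear intensities of 2457 and 5791 at 8 weeks, 12620 and 15771 at 1 week, and 11642 and 11135 in controls. Hepatocyte markers, 9 of them measured and Fgb at the floor on every array, summed to between 184 and 280 on the 6 arrays, and 1 of them passed the filter (Alb).

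Of the 73 P450 genes, 27 passed the filter on dim probe sets (a mean above the 40th percentile of probe-set means, log2 5.15). These 27 genes had 37 probe sets past the filter, 37.8% of the members' probe sets, against 60% of all probe sets. The other 46 genes were too dim to test. In 8 of them every value was at the floor: Cyp2b19, Cyp2c37, Cyp2d10, Cyp2g1, Cyp3a16, Cyp3a25, Cyp3a44 and Cyp4f14. A further 28 touched the floor on some arrays, and 10 were never at the floor but stayed dim. At the level of probe sets, 15 of the 98 (15.3%) were at the floor on all 6 arrays, against 7.69% of all probe sets. The floor marks only how low these probes read on this array, and a probe's level depends on the probe as well as on the transcript, so levels are compared here within a probe set and never between genes.

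The dim genes came from several branches of the family. The steroid hormone enzymes Cyp11a1, Cyp11b1, Cyp11b2, Cyp17a1 and Cyp21a1, the bile acid enzyme Cyp8b1 and the brain cholesterol hydroxylase Cyp46a1 were all below the filter. So were the vitamin D enzymes Cyp2r1, Cyp27b1 and Cyp24a1, the retinoic acid hydroxylase Cyp26a1, and Cyp1a2, a drug enzyme of the liver. By position in the RefSeq annotation, 51 of the 73 genes lay in 9 runs of neighbouring P450 genes with gaps of at most 1000000 bases, and 15 of these 51 passed the filter, against 12 of the 22 that stood alone. The Cyp2c run on chromosome 19 had 1 of 10 genes past the filter (Cyp2c29), the Cyp2d run on chromosome 15 had 1 of 8 (Cyp2d22) and the Cyp3a run on chromosome 5 had 0 of 4. The run on chromosome 7 that holds Cyp2s1, Cyp2b10, Cyp2b9 and Cyp2f2 had 4 of 8, and the Cyp4f run on chromosome 17 had 4 of 6. Neighbouring P450 genes are often close copies, and 14 of the 98 probe sets carry a suffix that marks probes matching several transcripts of a gene or of related genes, 8 of them past the filter, so the signals of near-identical genes may be mixed in them.

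**Figure D1:**
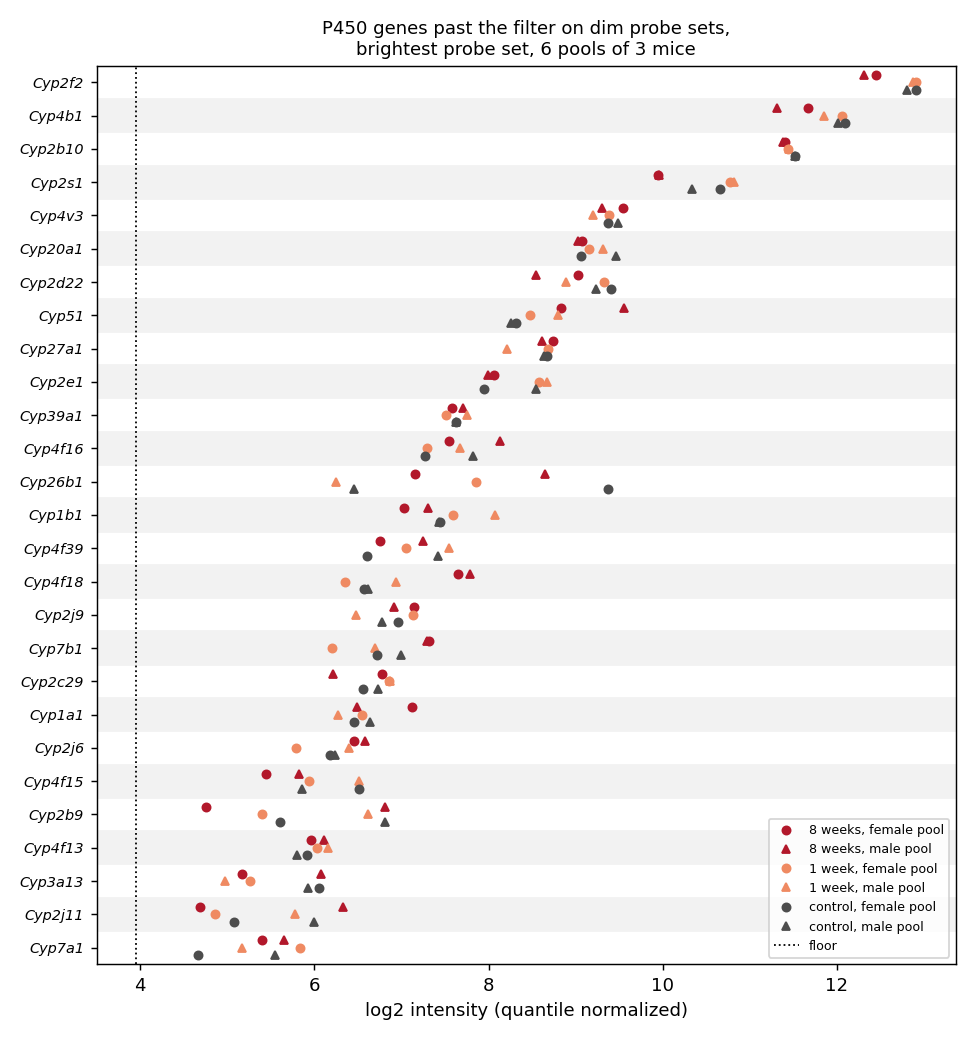
The log2 intensity of each of the 27 P450 genes past the filter, at its brightest probe set, in all 6 pools (circles female, triangles male), with the floor as a dotted line. The 8 week values of Cyp2f2, Cyp4b1 and Cyp2s1 lie left of the control values and those of Cyp51 and Cyp4f18 lie right of them; positions along the axis are not comparable between genes.

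No P450 probe set passed at 8 weeks of activation against control, and the values that stood furthest from control ran in both directions. Cyp51 (cholesterol synthesis) and Cyp4f18 (leukotriene inactivation) were higher in both sexes, and the airway enzymes Cyp2f2, Cyp4b1 and Cyp2s1 and the drug enzyme Cyp2d22 were lower in both. In limma's test, with Benjamini-Hochberg adjustment over all 27022 probe sets tested, 0 of the 37 P450 probe sets passed at an adjusted p below 0.05, against 0.596% of all probe sets. The smallest adjusted p of a member was 0.0643. At an unadjusted p below 0.05 there were 9 of 37 (24.3%), against 23% of all probe sets, and 18 of 37 (48.6%) had groups that did not overlap, against 41.8%. By the rule of at least 0.5 in the same direction in both sexes, 4 probe sets were higher (10.8%, against 4.99% of all), those of Cyp4f18, the pair of Cyp51 and the dimmer of Cyp2j6, and 0 were lower (against 6.28%). At an unadjusted p and by overlap, the shares of the P450s thus lay near those of the whole array. With the variances moderated by the trend and robust settings of limma, 7 of the 37 passed (18.9%), against 7.09% of all probe sets: 3 were higher, the 2 of Cyp51 and that of Cyp4f18, and 4 were lower, those of Cyp2f2, Cyp4b1, Cyp2s1 and Cyp2d22. The median log2 change of the 27 genes at 8 weeks was -0.01, against 0.08 for all 13215 genes tested; 8 P450 genes were higher in both sexes and 8 lower in both, against 42.2% and 25% of all genes, and 11 were mixed. Scaling moved this background: the median of all genes was -0.08 with the values as deposited and 0.20 with arrays centred on their medians.

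**Figure D2:**
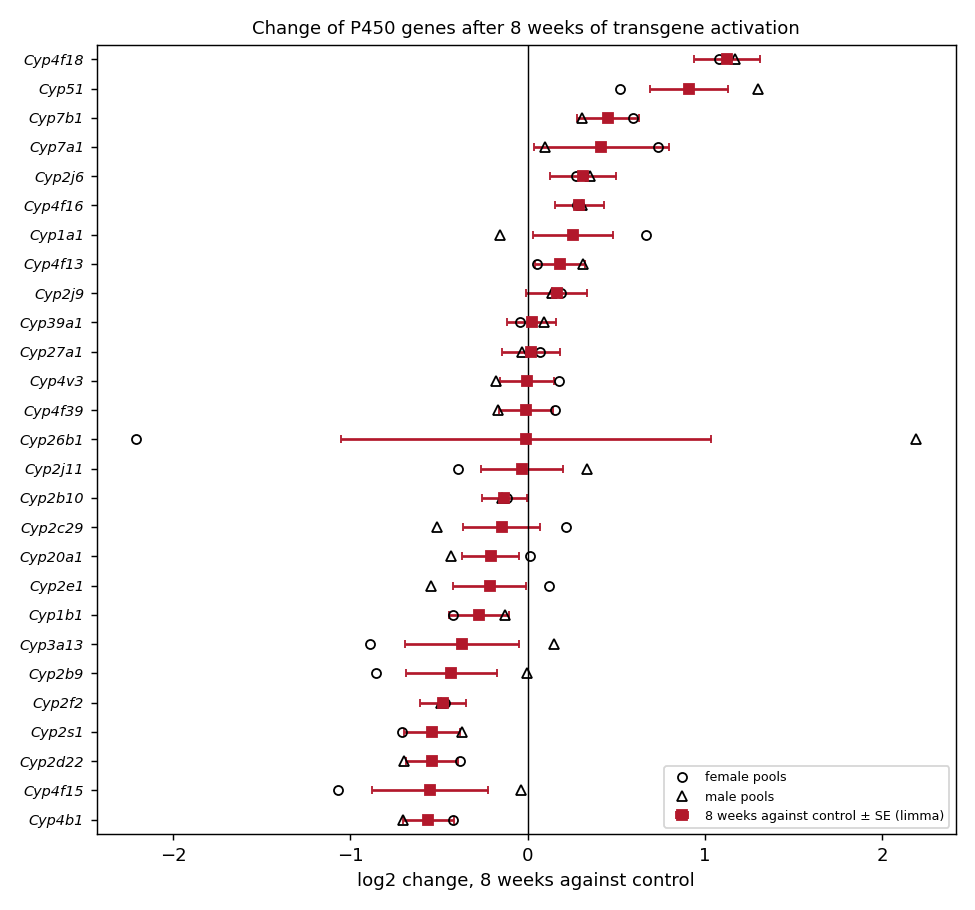
The log2 change of the 27 P450 genes at 8 weeks against control, as the limma estimate with its standard error (squares and bars) and in the female and male pools (circles and triangles). Cyp4f18 and Cyp51 stand highest, with Cyp4b1, Cyp4f15, Cyp2d22, Cyp2s1 and Cyp2f2 lowest, and Cyp26b1 has opposite values in the 2 sexes.

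Cyp51, the lanosterol demethylase of cholesterol synthesis, was measured by 2 probe sets past the filter. The brighter one had log2 intensities of 8.84 and 9.56 at 8 weeks, 8.47 and 8.80 at 1 week, and 8.31 and 8.26 in controls. Every transgenic pool lay above both controls, with the 8 week pools highest and the male 8 week pool above all others. The log2 change was 0.91 ± 0.22 (SE) at 8 weeks, or 1.88-fold, with an adjusted p of 0.118, and it was 0.52 in females and 1.30 in males. The other probe set had 6.71 and 7.63 at 8 weeks, 5.97 and 6.76 at 1 week, and 5.72 and 6.13 in controls on the log2 scale. Its 8 week change of 1.24 ± 0.18 gave the smallest adjusted p of any P450 probe set (0.0643). That probe set passed with arrays centred on their medians, with the floor at the 40th percentile and with log2(value + 16). A remaining probe set of Cyp51 was at the floor on 4 arrays and was not tested.

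The start region of Cyp51 is shown because sterol-regulated enzymes are known to be driven from short elements near their start sites. It covers chr5:4104648-4104947 on the minus strand of RefSeq's GRCm38.p6, 250 bases before to 50 after the start, with 4 matches in capitals: ATCACCTCAG from 89 bases before the start, GCGTG from 75 bases before it, CCAAT from 29 bases before it, and GCGTG on the other strand (CACGC) from 38 bases after it.
Cyp51: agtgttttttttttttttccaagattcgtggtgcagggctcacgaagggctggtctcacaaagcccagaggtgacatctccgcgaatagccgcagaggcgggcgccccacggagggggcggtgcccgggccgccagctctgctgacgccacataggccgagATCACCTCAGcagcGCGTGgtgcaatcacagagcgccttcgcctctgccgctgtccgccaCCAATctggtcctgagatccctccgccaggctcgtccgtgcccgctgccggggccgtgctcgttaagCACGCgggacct
The letters ATCACCTCAG were taken from this window after it had been read, so a match in Cyp51 was certain. They were found on either strand in 16 of 32851 RefSeq promoter windows of this length (0.0487%), the Cyp51 window included. Of the 23 tested P450 genes with a window, none but Cyp51 held them. The classic sterol element TCACNCCAC was in 1.24% of all windows and, among these 23, in that of Cyp2b10. CCAAT was in 37.4% of all windows and in 11 of the 23, and GCGTG, the core bound by the Ah receptor, in 32.4% and in 9 of the 23. No 2 of the matches in the Cyp51 window overlap. A match is a run of letters and is no evidence of binding.

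The other genes of cholesterol synthesis were mostly higher at 8 weeks, though none passed. Of 18 measured genes of the pathway, 0 passed in either direction at 8 weeks, and 14 were higher in both sexes and 0 lower in both, against 42.2% and 25% of all genes tested. Their median log2 change was 0.38, against 0.08 for all genes. Dhcr7, the last reductase of the pathway, had log2 intensities of 8.17 and 7.83 at 8 weeks, 7.58 and 7.32 at 1 week, and 7.43 and 6.99 in controls (change 0.79 ± 0.13, adjusted p = 0.0807). Fdps, which makes farnesyl diphosphate, had 9.46 and 9.35 at 8 weeks, 8.82 and 8.40 at 1 week, and 8.12 and 8.69 in controls (change 1.00 ± 0.26, adjusted p = 0.132). Both genes had 8 week pools above every control pool. Idi1, an isomerase of isoprenoid synthesis, and Hsd17b7, a late reductase, had 8 week changes of 0.77 and 0.57. At 1 week the list's median was 0.05, with 9 genes higher and 1 lower in both sexes, against 32.6% and 21.1% of all genes. Alveolar type 2 cells, which make surfactant lipid, had 8 of 9 tested markers higher in both sexes at 8 weeks and 0 passed, with summed linear intensities of 46313 and 46186 at 8 weeks against 37986 and 41117 in controls. The macrophage markers given below were higher as well, and the part of either cell type in the Cyp51 values was not tested.

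**Figure D3:**
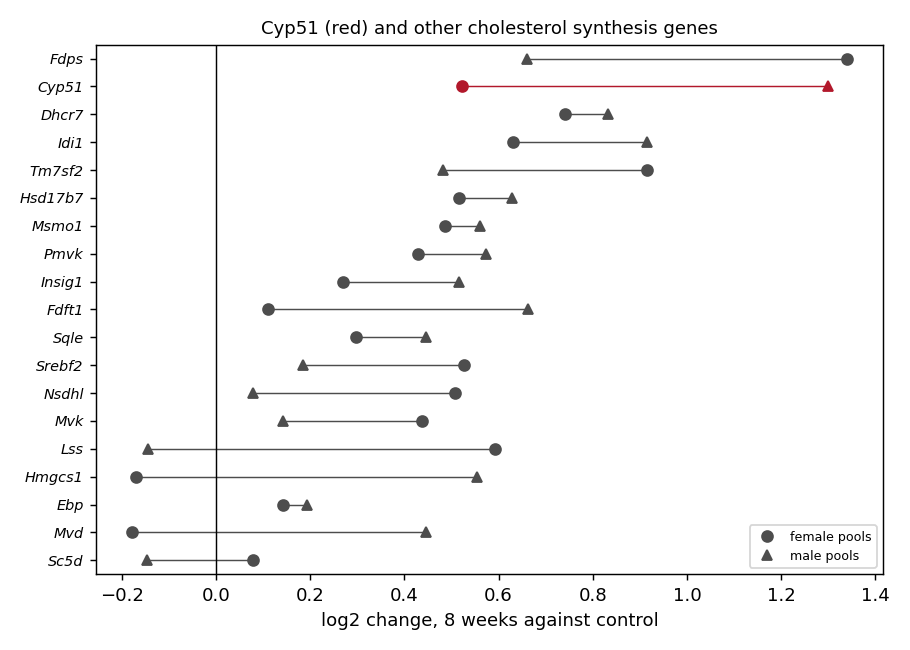
The log2 change at 8 weeks against control in the female pools (circles) and male pools (triangles) for Cyp51 (red) and the 18 other cholesterol synthesis genes. Cyp51 and 14 of the 18 others lie right of 0 in both sexes.

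Cyp4f18 belongs to family 4, the fatty acid omega-hydroxylases, and in mouse it oxidizes and inactivates the neutrophil attractant leukotriene B4. Its log2 intensity was 7.65 and 7.78 at 8 weeks, 6.35 and 6.94 at 1 week, and 6.57 and 6.61 in controls. Both 8 week pools lay above the other 4 pools, while the 1 week and control values overlapped. The 8 week change was 1.12 ± 0.19, or 2.18-fold, with an adjusted p of 0.0761, and it was 1.08 in females and 1.17 in males. It passed with arrays centred on their medians (adjusted p = 0.0497), after a filter at the 60th percentile (0.0448) and in the trend and robust fit (0.0256). A dimmer probe set of Cyp4f18 was at the floor on all 6 arrays and was not tested.

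The window of Cyp4f18, shown as that of the other gene with a large change in both sexes, covers chr8:72009577-72009876 on the minus strand of RefSeq's GRCm38.p6. The capitals mark CCAAT on the other strand (ATTGG), which starts 113 and 48 bases before the start, and these were the only matches to the motifs searched.
Cyp4f18: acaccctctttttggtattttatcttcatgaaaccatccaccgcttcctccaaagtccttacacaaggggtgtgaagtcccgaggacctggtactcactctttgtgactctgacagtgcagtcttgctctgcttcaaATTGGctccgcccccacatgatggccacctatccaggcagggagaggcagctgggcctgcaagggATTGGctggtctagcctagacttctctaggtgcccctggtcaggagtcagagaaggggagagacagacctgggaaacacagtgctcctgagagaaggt
The STAT letters TTCNNNGAA, searched because cytokine-driven genes often hold them, were in 8.3% of all windows and in 3 of the 23 P450 windows, those of Cyp2j11, Cyp4b1 and Cyp4f13. The forkhead letters TGTTTAC were in 3.65% of all windows and in 0 of the 23.

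Other enzymes that make or clear eicosanoids, 14 of them measured, had a median log2 change of 0.12 at 8 weeks. In both sexes 7 were higher and 3 lower, against 42.2% and 25% of all genes, and 0 passed. Ltc4s, the leukotriene C4 synthase, had log2 intensities of 7.83 and 7.96 at 8 weeks, 6.54 and 5.48 at 1 week, and 5.62 and 5.63 in controls (change 2.27 ± 0.33, adjusted p = 0.0658). Alox5ap, the partner protein of 5-lipoxygenase, had a change of 1.03 (adjusted p = 0.0603), while Alox15 had log2 intensities of 5.28 and 7.62 at 8 weeks with both control pools at the floor. Neutrophil markers were higher at 8 weeks in both sexes for 10 of 10 tested genes. Of these, 3 passed (Mmp8, Trem1 and Mmp9), against 0.596% of all probe sets. Their summed linear intensities were 11429 and 12113 at 8 weeks, 4154 and 5089 at 1 week, and 4466 and 4220 in controls. Macrophage markers were higher in both sexes for 10 of 11, none of which passed, with sums of 10485 and 8520 at 8 weeks against 3269 and 3891 in controls. None of the measured markers of either list was at the floor on every array. Their part in the Cyp4f18 values was not tested, and in whole lung a change in the number of cells of a type cannot be told apart from a change in RNA per cell.

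The 6 other family 4 genes past the filter included the lung enzyme Cyp4b1, described with the airway genes below. Cyp4v3, a fatty acid hydroxylase, had log2 intensities of 9.55 and 9.31 at 8 weeks, 9.38 and 9.20 at 1 week, and 9.38 and 9.49 in controls. Cyp4f16 had 7.54 and 8.13 at 8 weeks, 7.30 and 7.67 at 1 week, and 7.27 and 7.83 in controls. Cyp4f39 had 6.75 and 7.25, 7.05 and 7.55, and 6.60 and 7.42 at 8 weeks, 1 week and in controls. At these probe sets the 8 week and control pools overlapped in all 3 genes, while in Cyp4f16 and Cyp4f39 every female pool lay below every male pool. The dimmer probe set of Cyp4v3 had 8.64 and 8.41 at 8 weeks, above its controls (8.24 and 8.30), without passing. That of Cyp4f16 had 6.68 and 6.02 at 8 weeks, 5.97 and 5.98 at 1 week, and 5.94 and 6.21 in controls. Its sexes overlapped. The 8 week change of Cyp4f13 was 0.18, and that of Cyp4f15 was -0.55, of which females made -1.07 and males -0.04.

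The airway enzymes Cyp2f2, Cyp4b1 and Cyp2s1 had their lowest values at 8 weeks, and none passed. Cyp2f2, the club cell enzyme that activates naphthalene to a toxic epoxide, had log2 intensities of 12.45 and 12.32 at 8 weeks, 12.91 and 12.88 at 1 week, and 12.91 and 12.81 in controls. Its change of -0.48 ± 0.13, a 1.39-fold difference, was almost the same in females (-0.47) and males (-0.49), with an adjusted p of 0.137. With arrays centred on their medians it was -0.25 (adjusted p = 0.385). Both 8 week pools were below the other 4 pools, which lay within a narrow band.

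Cyp4b1, which activates the lung toxicant ipomeanol, had log2 intensities of 11.67 and 11.31 at 8 weeks, 12.06 and 11.85 at 1 week, and 12.09 and 12.01 in controls. Its 8 week change was -0.56 ± 0.14 (adjusted p = 0.126), -0.42 in females and -0.70 in males, and the 8 week pools did not overlap either of the other groups. Cyp2s1, an epithelial P450 of the airways, had 9.94 and 9.96 at 8 weeks, 10.78 and 10.82 at 1 week, and 10.65 and 10.33 in controls on the log2 scale. It was thus lowest at 8 weeks and highest at 1 week, with no overlap between any pair of groups. The change at 8 weeks against control was -0.54 ± 0.16 (adjusted p = 0.153), and that at 8 weeks against 1 week was -0.85 ± 0.16 (adjusted p = 0.131), equal to 1.80-fold.

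Cyp2d22, a member of the debrisoquine hydroxylase subfamily, had a matching pair of probe sets. The brighter gave log2 intensities of 9.03 and 8.54 at 8 weeks, 9.32 and 8.89 at 1 week, and 9.41 and 9.24 in controls, and the dimmer gave 8.12 and 7.72, 8.53 and 8.08, and 8.55 and 8.57 at 8 weeks, 1 week and in controls. Their 8 week changes were -0.54 ± 0.15 (adjusted p = 0.141) and -0.64 ± 0.17 (adjusted p = 0.138). In each probe set the 8 week pools lay below both controls, with the male 8 week pool lowest.

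Cyp2b10, which is inducible through the receptor CAR, had log2 intensities of 11.40 and 11.38 at 8 weeks, 11.43 and 11.45 at 1 week, and 11.52 and 11.52 in controls. Its 8 week change of -0.13 ± 0.13 turned to 0.05 with arrays centred on their medians, and its other probe sets gave -0.21 and -0.11, all smaller in size than the change of Cyp2f2. The Cyp2b10 control pools were alike and all transgenic pools lay below them in this probe set.

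Of 13 tested markers of club and other secretory airway cells, 8 were lower and 1 higher in both sexes at 8 weeks, and 0 passed. Among all genes tested, 25% were lower and 42.2% higher in both sexes at 8 weeks. Their summed linear intensities were 34648 and 42068 at 8 weeks, 44593 and 49258 at 1 week, and 43715 and 41838 in controls, so that only the female 8 week pool lay below both controls. Cldn10, a claudin of these cells, had a log2 change of -1.01 (adjusted p = 0.0708). Of 9 ciliated cell markers, 8 were lower in both sexes and 0 passed, with sums of 3771 and 3700 at 8 weeks against 5796 and 4106 in controls. No measured marker of either list was at the floor on every array. The part of these cells in the values of Cyp2f2, Cyp4b1 and Cyp2s1 was not tested.

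**Figure D4:**
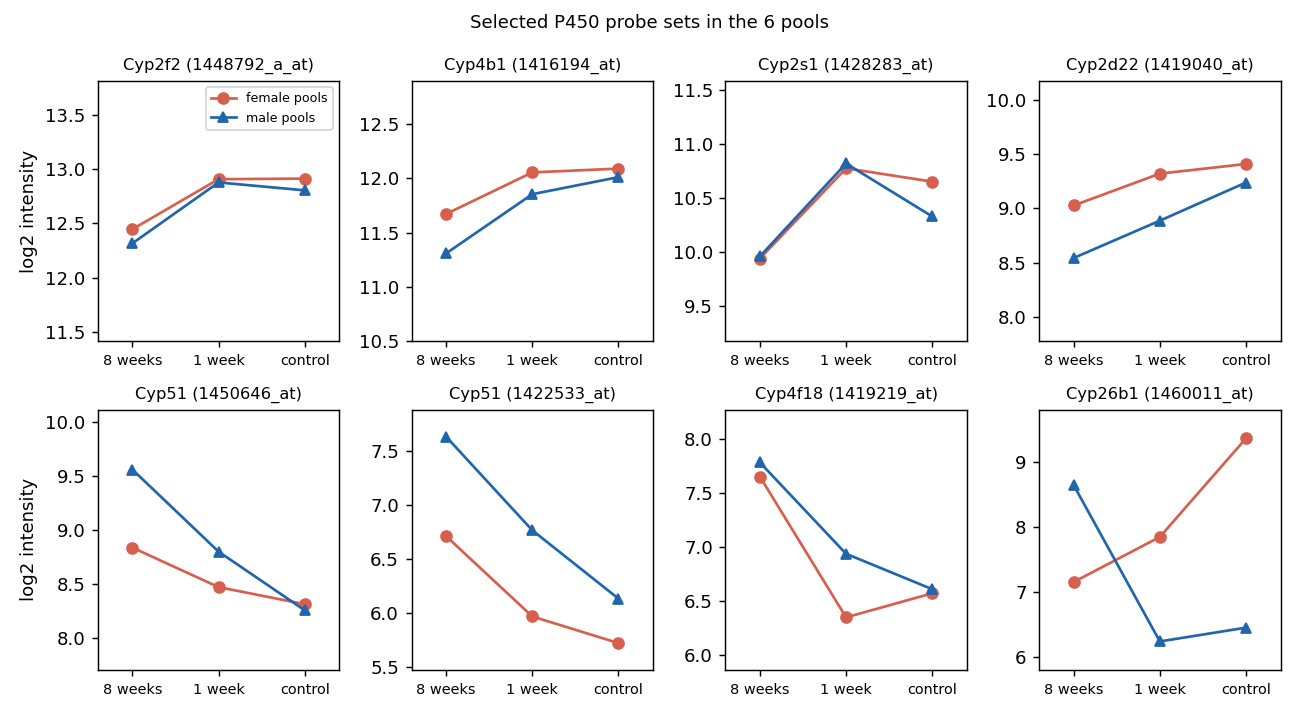
Log2 intensity of selected P450 probe sets in the 6 pools, by group and with a line for each sex, all panels but Cyp26b1 spanning the same range. The top row (Cyp2f2, Cyp4b1, Cyp2s1, Cyp2d22) is lowest at 8 weeks in both sexes, both probe sets of Cyp51 and the Cyp4f18 panel are highest at 8 weeks, and the 8 week and control values of Cyp26b1 differ in opposite directions in the 2 sexes.

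Among the remaining family 2 genes, groups mostly overlapped at 8 weeks. Cyp2e1, the ethanol-inducible enzyme, had log2 intensities of 8.06 and 8.00 at 8 weeks, 8.58 and 8.67 at 1 week, and 7.94 and 8.54 in controls. Its 1 week pools lay above all others, and its 8 week change of -0.21 ± 0.20 (adjusted p = 0.565) was 0.12 in females and -0.55 in males. Cyp2c29, a drug and arachidonic acid enzyme, had 6.77 and 6.22 at 8 weeks, 6.86 and 6.87 at 1 week, and 6.55 and 6.73 in controls. The Cyp2j enzymes make epoxides from arachidonic acid. Cyp2j9 had log2 intensities of 7.15 and 6.91 at 8 weeks, 7.13 and 6.48 at 1 week, and 6.96 and 6.77 in controls. Cyp2j6 was below the level at which single values are listed, and its brighter probe set had an 8 week change of 0.31 (adjusted p = 0.378). Its dimmer one had 5.81 and 5.95 at 8 weeks, 5.44 and 5.79 at 1 week, and 5.21 and 5.09 in controls, so that all transgenic pools lay above both controls (8 week change 0.73 ± 0.17, adjusted p = 0.110).

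Family 1, whose induction by dioxin and polycyclic aromatic hydrocarbons runs through the Ah receptor, showed no change that passed. Cyp1a1 had log2 intensities of 7.12 and 6.49 at 8 weeks, 6.54 and 6.27 at 1 week, and 6.45 and 6.64 in controls, and the groups overlapped in every comparison. Its 8 week change of 0.26 ± 0.23 (adjusted p = 0.538) rested on females (0.67, against -0.16 in males), and it was -0.04 without the female 8 week pool and -0.07 without the female control. Cyp1b1, which also oxidizes estrogens and is expressed outside the liver, had 7.02 and 7.30 at 8 weeks, 7.59 and 8.07 at 1 week, and 7.45 and 7.43 in controls. The 8 week pools of Cyp1b1 were below every other pool and the 1 week pools above. Its changes were -0.28 ± 0.17 at 8 weeks (adjusted p = 0.386), 0.39 at 1 week (adjusted p = 0.901) and -0.67 at 8 weeks against 1 week (adjusted p = 0.175). That at 8 weeks was -0.08 without the female control, -0.47 without the male control and -0.50 with the values as deposited, and the 1 week change was 0.20 without the male control, 0.22 without the male 1 week pool and 0.60 without the female control.

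Of the 5 other Ah receptor targets tested, 1 was higher and 3 lower in both sexes at 8 weeks, against 42.2% and 25% of all genes. Their median was -0.21 and 0 passed. Aldh3a1, an aldehyde dehydrogenase, had a log2 change of 0.37, while Tiparp, which represses the receptor, had -0.51. The receptor gene Ahr itself had log2 intensities of 10.24 and 10.22 at 8 weeks, 10.20 and 10.81 at 1 week, and 10.50 and 10.70 in controls, with a change of -0.36 ± 0.19 (adjusted p = 0.327). The repressor Ahrr was at the floor on every array. Of 13 regulators of P450 genes, 8 passed the filter; Nr1i2 and Nr1i3, the drug-sensing receptors PXR and CAR of the liver, did not, nor did Hnf4a and Nr0b2. The largest value was that of Cebpa, a transcription factor of epithelial and myeloid cells, at 0.68 ± 0.15 (adjusted p = 0.108).

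In the sterol and bile acid group, Cyp7b1 and Cyp27a1 act on oxysterols. Cyp7b1, which removes hydroxylated cholesterol, had log2 intensities of 7.32 and 7.30 at 8 weeks, 6.20 and 6.69 at 1 week, and 6.72 and 6.99 in controls. The 8 week pools lay above and the 1 week pools below the controls. The 8 week change was 0.45 ± 0.17 (adjusted p = 0.217) and that at 1 week -0.41 ± 0.17 (adjusted p = 0.901). At 8 weeks it was 0.24 without the female 8 week pool and 0.24 with the values as deposited, and the 1 week change was -0.23 without the female 1 week pool. A second probe set of Cyp7b1 had the same order of groups with a smaller 8 week change, 0.10, and a like one at 1 week, -0.40. Cyp27a1, the mitochondrial sterol hydroxylase, had 8.74 and 8.61 at 8 weeks, 8.68 and 8.21 at 1 week, and 8.67 and 8.64 in controls on the log2 scale. Its 8 week change of 0.02 ± 0.16 was -0.10 with the values as deposited. Cyp39a1, an oxysterol hydroxylase, had 7.58 and 7.71 at 8 weeks, 7.51 and 7.75 at 1 week, and 7.62 and 7.62 in controls on the log2 scale, and its groups overlapped in every comparison. Cyp7a1, the rate-limiting enzyme of bile acid synthesis in liver, lay near the filter, with an 8 week change of 0.42 ± 0.38.

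Cyp26b1, which degrades retinoic acid, had the largest standard error of the 37 P450 probe sets at 8 weeks. Its log2 intensity was 7.16 and 8.65 at 8 weeks, 7.85 and 6.24 at 1 week, and 9.37 and 6.46 in controls. The female pool was above the male pool in controls and at 1 week and below it at 8 weeks. The 8 week change was -2.21 in females and 2.19 in males, which gave -0.01 ± 1.04 together (adjusted p = 0.997). Leaving out 1 pool at a time moved it between -1.88 and 1.84 at 8 weeks. It was 1.43 without the female control and 1.84 without the female 8 week pool. The transgene by sex interaction of Cyp26b1 did not pass, but that test took both durations together and could not address 8 weeks alone. Of 11 tested genes of the retinoic acid pathway, 1 was higher and 6 lower in both sexes at 8 weeks, against 42.2% and 25% of all genes. Their median was -0.22 and 0 passed. Crabp1, a retinoic acid binding protein, had 6.87 and 6.47 at 8 weeks, 4.68 and 5.31 at 1 week, and 5.05 and 5.03 in controls (change 1.63 ± 0.27, adjusted p = 0.0794), and Rbp4, the retinol carrier, had a change of -0.53.

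The only tested gene of family 3, Cyp3a13, had log2 intensities of 5.17 and 6.07 at 8 weeks, 5.26 and 4.98 at 1 week, and 6.06 and 5.92 in controls. Both 1 week pools and the female 8 week pool were low, and the male 8 week pool was at the control level. Cyp20a1, a P450 with no established substrate, had 9.07 and 9.03 at 8 weeks, 9.15 and 9.32 at 1 week, and 9.06 and 9.46 in controls. Its 3 tested probe sets disagreed, with 8 week changes of -0.21, 0.01 and -0.74.

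After 1 week of activation, 0 of 37 P450 probe sets passed against control, as did 0% of all probe sets, and the smallest adjusted p of a member was 0.894. At an unadjusted p below 0.05 there were 3 of 37 (8.11%), against 5.5% of all probe sets, and 14 (37.8%) had groups that did not overlap, against 23.5%. Cyp3a13 was the only P450 gene at least 0.5 lower in both sexes (-0.80 and -0.95, change -0.87 ± 0.32, adjusted p = 0.901), and none was that much higher. All probe sets had shares of 1.47% lower and 1.07% higher by this rule. Without the male 1 week pool the change of Cyp3a13 was -0.54. The gene's 1 week values, log2 5.26 and 4.98, lay near the filter level of 5.15, the male one below it. The median log2 change of the 27 genes was -0.06, against 0.03 for all genes, with 7 of the 27 P450 genes higher in both sexes and 8 lower in both, against 32.6% and 21.1% of all genes. Cyp2f2, Cyp4b1 and Cyp2b10 had changes of 0.03, -0.10 and -0.08.

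Between the transgenic groups, 8 weeks against 1 week does not use the control pools, and 0 of 37 P450 probe sets passed, as did 0% of all. The smallest adjusted p was that of Cyp4f18 (0.122), at 1.07 ± 0.19 or 2.10-fold, with 1.30 in females and 0.84 in males. At an unadjusted p below 0.05 there were 9 of 37 (24.3%), against 18.5% of all probe sets. By the rule of at least 0.5 in both sexes, 3 probe sets were higher at 8 weeks (8.11%, against 3.93% of all) and 3 lower (8.11%, against 5.47%). The higher ones were those of Cyp4f18, Cyp7b1 (1.12 in females and 0.61 in males) and the dimmer probe set of Cyp51, and the lower ones those of Cyp2s1, Cyp1b1 and Cyp2e1. Cyp2e1 had a change of -0.60 ± 0.20 (adjusted p = 0.238), which was -0.39 without the male 8 week pool. The Cyp7b1 change of 0.86 was 0.50 without suffixed probe sets, at the second probe set of the gene. With the trend and robust fit, 4 of the 37 passed (10.8%, against 2.78% of all probe sets): Cyp4f18 was higher at 8 weeks, and Cyp2f2, Cyp2s1 and Cyp4b1 were lower. For both durations together against control, 0 of 37 passed, as did 0% of all probe sets, with 7 of 37 (18.9%) at an unadjusted p below 0.05, against 14%.

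The enzymes that act after or beside the P450s in drug metabolism were mostly lower at 8 weeks. Of 25 tested conjugating and related enzymes, 0 were higher and 16 lower in both sexes at 8 weeks, against 42.2% and 25% of all genes. In this list 0 passed, and the median was -0.27, against 0.08 for all genes. Aox1, an aldehyde oxidase, had log2 intensities of 8.63 and 8.69 at 8 weeks, 9.25 and 9.57 at 1 week, and 9.32 and 9.57 in controls (change -0.79 ± 0.14, adjusted p = 0.0854). Fmo1, a flavin monooxygenase, had 10.61 and 10.32 at 8 weeks, 10.91 and 10.92 at 1 week, and 11.17 and 11.09 in controls (change -0.66 ± 0.15, adjusted p = 0.108). Aox3 and the sulfotransferase Sult1d1 had changes of -0.84 and -1.21. At 1 week the list's median was 0.05. The electron partners of the P450s ran in both directions: of 5 tested, 2 were higher and 2 lower in both sexes at 8 weeks, with a median of 0.06 and 0 passed. Cyb5b, the mitochondrial cytochrome b5, had 0.47 (adjusted p = 0.140), and Cyb5a, the microsomal form, -0.17. Por had no probe set with its symbol alone.

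In the chosen processing P450 probe sets passed only between the sexes, where their share was below that of all probe sets. At an unadjusted p below 0.05 their share was 16.2%, against 29.7% of all. Cyp2b9 and Cyp2j11 were lower in female than in male pools of every group, 2 of 37 probe sets (5.41%), against 8.3% of all probe sets. Cyp2b9, a family 2 enzyme known for its female-biased level in mouse liver, had log2 intensities of 4.76, 5.40 and 5.61 in the female 8 week, 1 week and control pools, against 6.81, 6.62 and 6.81 in the male ones. Its difference of females against males was -1.49 ± 0.21, or 2.81-fold, with an adjusted p of 0.0291. Cyp2j11, an arachidonic acid epoxygenase subfamily member, had 4.68, 4.86 and 5.08 in the female pools against 6.33, 5.77 and 5.99 in the male pools, a difference of -1.16 ± 0.19, or 2.23-fold, with an adjusted p of 0.0369. In both genes the sexes did not overlap, and the female 8 week pool was the lowest of all. Every female value of Cyp2j11 lay below the filter level (log2 5.15), so this gene was tested only through its male pools. The female 8 week value of Cyp2b9 was below that level too.

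Both sex calls were lost with no filter on dim probe sets (adjusted p = 0.125 for Cyp2b9 and 0.138 for Cyp2j11) and with unmoderated least squares (0.215 and 0.227). They were also lost without either control pool or either 1 week pool, where between 0.0966 and 0.149 was the adjusted p of Cyp2b9, and they were kept without either 8 week pool. Each sex had 1 pool per group, so that a difference between the 3 female and 3 male pools is one between pools of 3 mice, and the female and male controls also differed in their labels. At their brightest probe sets Cyp4f39 and Cyp4f16, both of the chromosome 17 run, were lower in females in every group without passing. The differences were -0.60 (adjusted p = 0.0559) and -0.51 (adjusted p = 0.0636). At the dimmer probe set of Cyp4f16 the difference was 0.13 (adjusted p = 0.704), and the sexes overlapped. It was -0.27 in controls and 0.65 at 8 weeks. The median sex difference of the 27 genes was -0.12, against -0.02 for all genes. In every group, 5 of the 27 were higher in females and 6 lower, against 25% and 31.4% of all genes. The sexes did not overlap in 3 probe sets higher in females (8.11%, against 13.2% of all) and 4 lower (10.8%, against 17.2%). The 3 were those of Cyp2j9, Cyp27a1 and a dimmer one of Cyp2b10. The dimmer tested probe set of Cyp51 was lower in females in every group (-0.71, adjusted p = 0.0540), with overlap of the sexes.

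**Figure D5:**
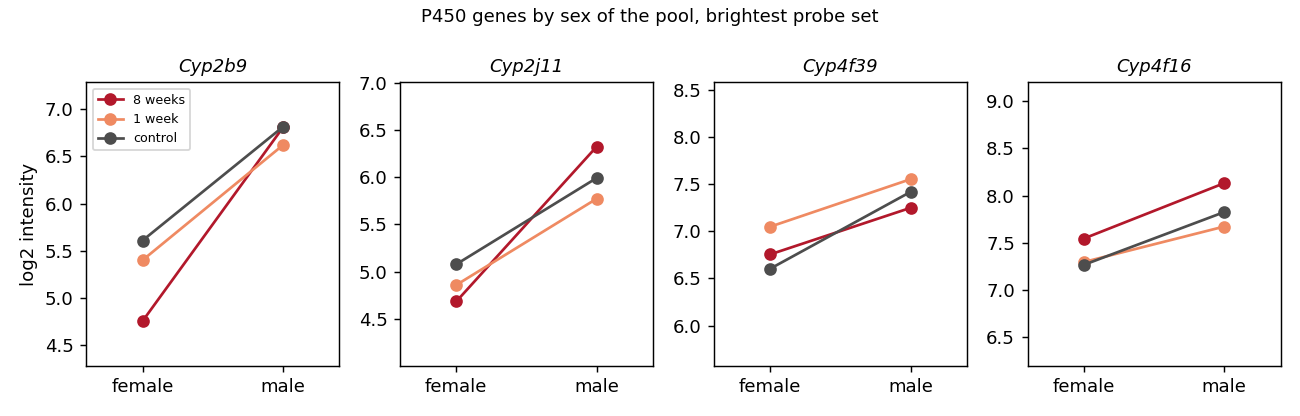
Log2 intensity of Cyp2b9, Cyp2j11, Cyp4f39 and Cyp4f16, each at its brightest probe set, in the female and male pools, with a line for each group. The female values lie below the male values in all 3 groups, with the widest gap at 8 weeks in Cyp2b9 and Cyp2j11. All female values of Cyp2j11 lie below the filter level.

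Whether the change with the transgene differed between the sexes was tested as an interaction over both durations together. No P450 probe set passed, nor did any of the 27022 probe sets (0%), and 0 of 37 P450 probe sets had an unadjusted p below 0.05, against 2.35% of all. The female minus male difference of Cyp2b9 was -2.05 at 8 weeks, -1.22 at 1 week and -1.20 in controls, and that of Cyp2j11 was -1.64, -0.92 and -0.91. In both genes the difference was widest at 8 weeks, and neither had an interaction that passed. All female values of Cyp2j11, and the female 8 week value of Cyp2b9, lay below the filter level. The test had no term for duration, so it could not show whether a sex difference was particular to 8 weeks.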

How the data were processed

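Whole-lung RNA was measured on 6 one-colour arrays. The authors deposited linear signal intensities, the smallest being 10, as the values and the file headers show; their probe summary and scaling are not given in the sources used here. Biotin labelling is given for all samples, per the labels. The intensities were quantile normalized over the 6 arrays, raised to the 20th percentile of all values (15.46) and turned into log2, and probe sets with a mean above the 40th percentile were tested, 27022 of 45037. Limma 3.58.1 in R 4.3.3 fitted group and sex over all 6 arrays (2 residual degrees of freedom, prior 2.77). A second model fitted transgene, sex and their interaction, with no term for duration. Benjamini-Hochberg adjustment ran over all probe sets tested, with 0.05 as the threshold; the script was tested on simulated data. With 1 pool a sex in each group, the residual spread mixes pool-to-pool spread with differences in response between the sexes, and the number of arrays limits the precision. Nothing in the labels says how pools were matched beyond sex.

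Each gene stood at its brightest probe set with its symbol alone. Named with every value were genes with a mean above the 60th percentile (log2 6.57), and a fixed set of 12 member genes, Cyp51 and Cyp4f18 among them. Cyp2a5 was fixed as well, but it had no probe set with its symbol alone. Named for comparisons were genes at least 0.5 higher or lower on the log2 scale in both sexes, probe sets that passed, and up to 4 genes of a list. Probe sets and genes named outside this rule were chosen after their values were seen. These included the dimmer probe sets of Cyp51, Cyp2b10, Cyp2j6, Cyp2d22, Cyp4v3, Cyp4f16 and Cyp4f18, the further ones of Cyp20a1, and Cyp4f15, Cyp4f13 and Cyp7a1. The members and lists were chosen with earlier results of these data known. Promoter windows and gene neighbours came from RefSeq (GRCm38.p6): 52 of the 73 genes had a window. Alternatives were other scalings, floors, filters, variance models, probe-set choices and leaving out each array in turn. Python 3.11.15 and matplotlib 3.10.9 were used for the figures.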

Additional observations from a re-analysis of the deposited data

How the results depend on the processing

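The number of P450 probe sets past the threshold at 8 weeks against control, 0 of 37 in the chosen processing, was 2 with arrays centred on their medians (Cyp51 and Cyp4f18), 1 with the floor at the 40th percentile, 1 with log2(value + 16), 1 after a filter at the 60th percentile, and 7 in the trend and robust fit. At 8 weeks against 1 week it was 4 with the trend and robust fit. For female against male, 2 in the chosen processing, it was 4 with the floor at the 40th percentile, 4 with log2(value + 16), 6 with the trend and robust fit, 0 with no filter on dim probe sets, 0 with least squares, and 0 to 3 when 1 pool was left out, where the lone pool of a group is assumed to vary like the others. The interaction stayed at 0 in every processing alternative run for it, which were chosen after the data were seen. The cause was not tested. Over all probe sets, 161 passed at 8 weeks in the chosen processing, against 461 with values as deposited, 705 with centred arrays, 439 and 583 with the other floors, 505 after a filter at the 60th percentile, and 1916 with the trend and robust fit. Of these calls, 34.8% were higher in the chosen processing, 16.5% with values as deposited and 45.1% with centred arrays. For female against male, 2244 of all probe sets passed in the chosen processing and 2745 with the floor at the 40th percentile. The number was 2975 with log2(value + 16) and 4183 with the trend and robust fit. In that last fit 15.5% of all probe sets passed, beside 16.2% of the P450 probe sets.

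The changes of the named genes kept their direction in all but 6 of their processing and model alternatives. With values as deposited, the 1 week changes of Cyp2f2 and Cyp4f18 were -0.0165 and -0.0394 and the 8 week change of Cyp27a1 was -0.0966. With centred arrays, Cyp2b10 was at 0.0055 at 1 week and 0.0472 at 8 weeks, and Cyp26b1 at 0.0899 at 8 weeks. The 8 week change of Cyp2f2 was -0.25 with centred arrays. When 1 pool was left out, 13 changed direction, and the ranges at 1 week were -2.29 to 0.57 for Cyp26b1, -0.47 to 0.18 for Cyp1a1, -0.20 to 0.0061 for Cyp4b1, -0.20 to 0.31 for Cyp4f18 and -0.0129 to 0.0798 for Cyp2f2. At 8 weeks they were -1.88 to 1.84 for Cyp26b1, -0.0656 to 0.58 for Cyp1a1, -0.12 to 0.15 for Cyp27a1 and -0.52 to 0.0797 for Cyp2e1. Without changing direction, Cyp1b1 ranged from -0.47 to -0.08 and Cyp7b1 from 0.24 to 0.65 at 8 weeks, and Cyp7b1 from -0.59 to -0.23 and Cyp3a13 from -1.20 to -0.54 at 1 week. The 8 week directions of Cyp51, Cyp4f18, Cyp2f2, Cyp4b1 and Cyp2s1 held in every alternative run. No paired analysis was possible because the labels number no replicates, and sex, the only link between groups, was already a term; with 2 pools a group a missed threshold says little about small changes.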

Other observations

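A probe set whose annotation lists Cyp2a5 and Cyp2a4 together, close copies in the same neighbourhood as Cyp2f2 and therefore no members by the rule of a symbol alone, had log2 intensities of 8.54 and 9.0 in the female and male 8 week pools, 10.11 and 10.10 in the 1 week pools, and 9.66 and 9.56 in the control pools. Its 8 week pools lay below and its 1 week pools above both controls, which is also the order of the groups in Cyp2s1. These values were read after the members' results were known, and the signal cannot be assigned to either gene.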
